A study of Homo sapiens with 32 samples.

Results

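The dispersed homeobox developmental genes are transcription factors of 16 families whose genes lie apart from the HOX clusters. They were chosen by symbol alone, as the genes named PAX, LHX, DLX, IRX, PITX, MSX, OTX, EMX, MEIS, PBX, GSX, BARX, EN, VAX or HMX followed by a single digit, together with the sine oculis homologs. The rule found 62 of the 28278 gene symbols of the count tables, and all 62 were found again by Ensembl ID among the 60199 genes of the knockdown table. The PAX family gave 9 genes and LHX 8, followed by DLX and IRX with 6 each, as many as the sine oculis homologs, and PBX with 4. Families with 3 genes were HMX, MEIS and PITX, and the other 7 families had 2 each. Levels were measured by RNA-seq in Ewing sarcoma cell lines, 32 libraries in all.

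Homeobox genes encode a DNA-binding homeodomain and set the identity of body regions and cell types in the embryo. DLX, MSX, BARX, EMX, EN, HMX and VAX genes pattern the forebrain, sense organs, branchial arches and limbs, and several of them act in the neural crest. PAX, PITX and OTX proteins belong to the paired class, LHX proteins carry LIM domains that bind cofactors such as LDB1, the sine oculis homologs work with EYA coactivators, and MEIS, PBX and IRX proteins form the TALE class, of which MEIS and PBX are cofactors of HOX proteins. Many of these genes are held silent outside their own territory by Polycomb repressive complex PRC2, in which EZH2 is the catalytic subunit and SUZ12 a structural one. STAG2 and STAG1 are alternative subunits of cohesin, the complex that holds chromatin loops and sister chromatids, and STAG2 is recurrently mutated in Ewing sarcoma.

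A673 is an Ewing sarcoma line with unmutated STAG2. Its WT clone carries a doxycycline-inducible Cas9 at the AAVS1 locus, and all KO clones were derived from that clone, so they share the Cas9 insertion, which the parental line lacks. Experiment 1 held 2 WT clone, 1 parental and 2 STAG2 KO libraries. Experiment 2 held 2 WT clone, 1 parental, 3 STAG2 KO, 3 EZH2 KO and 3 SUZ12 KO libraries, and experiment 3 held 1 WT clone, 1 parental and 3 STAG1 KO libraries. Each KO library is 1 clone, and nothing in the labels says whether libraries of the unedited cells were separate cultures, so p-values measure the spread between these libraries. Knockdown compared 3 mock-transfected (siC) with 3 siSTAG2-transfected A673 samples. SK-N-MC, which has STAG2, was compared with a STAG2 KO clone, and A4573, whose unedited cells (labelled WT) lack STAG2, with a clone in which STAG2 was restored (STAG2 KI), with 1 library each. Levels are given as normalized CPM, read counts scaled to library depth by the TMM method over the 22 A673 clone and parental libraries.

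Library totals were 15734628 to 20663679 counts in A673 clones and parental cells, 29322507 to 32261248 in the pairs and 6852340 to 8184632 recovered reads in the knockdown. STAG2 was at 42.2 and 183 normalized CPM in the STAG2 KO libraries of experiment 1 and at 63.4, 68.9 and 59.2 in those of experiment 2, against 255 to 358 in the 6 STAG2-proficient libraries. The second value belongs to the experiment 1 library numbered 24, the highest STAG2 among the STAG2 KO libraries. EZH2 was at 28.3 to 54.9 in EZH2 KO against 171 to 193 in the controls, and SUZ12 at 11.3 to 20.5 in SUZ12 KO against 59.9 to 66.6. STAG1 was at 61.1, 15 and 33 in the libraries labelled STAG1 KO 1, 5 and 7, against 57.4 and 69.1 in their controls, so the library labelled 1 was at the level of the controls. The library of STAG2 KO 5 in experiment 2 stood apart from the other STAG2 KO libraries of that experiment, with a mean chi-square per gene of 113 and 140.2 against them, while no other pair of libraries of one genotype and experiment exceeded 66.6. Among Ewing sarcoma markers, CD99 was listed at 0 in every count library, and the 8 markers summed to 2144 to 2901 in STAG2 KO and 2783 to 3656 in STAG2-proficient libraries. Leukocyte markers summed to at most 1.23 and endothelial ones to at most 6.36 in any A673 group. The 4 fibroblast markers summed to 176.3 to 504.2 in STAG2 KO and 400.1 to 1015 in STAG2-proficient libraries. Of these 4, 3 were called lower in STAG2 KO and 4 in the knockdown. In STAG1 KO the sum was 1056 to 1428 against 384 to 446.9 in its controls, with COL1A1 called higher and LUM lower. The part of these markers in the results was not tested.

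The promoters of 8 members described below are printed as examples, and no link between their sequence and the expression results was tested. They comprise 4 genes that were low or at 0 in control cells and higher after loss of PRC2 (EN2, HMX1, MSX2 and PITX1), the neighbours DLX1 and DLX2 that were lower after it, MSX1, which was lower without STAG2 and higher without PRC2, and VAX1, which was higher in STAG2 KO and after STAG2 knockdown. Each sequence is the 250 bases before the annotated start, from RefSeq on GRCh38.p14, written 5′ to 3′ along the gene with CpG dinucleotides in capitals.
EN2, chr7:155457879-155458128, + strand: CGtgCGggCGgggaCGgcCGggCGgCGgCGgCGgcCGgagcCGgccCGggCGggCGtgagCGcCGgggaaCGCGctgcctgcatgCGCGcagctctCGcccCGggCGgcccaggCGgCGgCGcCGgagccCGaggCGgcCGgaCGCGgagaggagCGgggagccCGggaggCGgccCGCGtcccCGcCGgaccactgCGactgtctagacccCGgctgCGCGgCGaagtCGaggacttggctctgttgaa
HMX1, chr4:8871840-8872089, - strand: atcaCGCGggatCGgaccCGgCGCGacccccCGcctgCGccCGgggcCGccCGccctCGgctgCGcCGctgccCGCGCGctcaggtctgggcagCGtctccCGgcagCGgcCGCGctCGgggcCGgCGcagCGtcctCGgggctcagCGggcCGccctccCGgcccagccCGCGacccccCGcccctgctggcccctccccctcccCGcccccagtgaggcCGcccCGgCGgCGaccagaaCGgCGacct
MSX2, chr5:174724332-174724581, + strand: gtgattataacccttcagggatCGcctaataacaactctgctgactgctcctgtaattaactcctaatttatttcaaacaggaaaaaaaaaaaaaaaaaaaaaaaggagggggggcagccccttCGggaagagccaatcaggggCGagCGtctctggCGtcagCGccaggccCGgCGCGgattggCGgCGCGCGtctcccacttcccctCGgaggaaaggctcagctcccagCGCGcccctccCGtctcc
PITX1, chr5:135034229-135034478, - strand: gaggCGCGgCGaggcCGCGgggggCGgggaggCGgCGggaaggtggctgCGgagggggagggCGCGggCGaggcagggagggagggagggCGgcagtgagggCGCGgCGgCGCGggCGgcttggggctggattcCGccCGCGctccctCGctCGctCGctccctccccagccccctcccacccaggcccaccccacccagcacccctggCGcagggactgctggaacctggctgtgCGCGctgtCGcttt
DLX1, chr2:172085257-172085506, + strand: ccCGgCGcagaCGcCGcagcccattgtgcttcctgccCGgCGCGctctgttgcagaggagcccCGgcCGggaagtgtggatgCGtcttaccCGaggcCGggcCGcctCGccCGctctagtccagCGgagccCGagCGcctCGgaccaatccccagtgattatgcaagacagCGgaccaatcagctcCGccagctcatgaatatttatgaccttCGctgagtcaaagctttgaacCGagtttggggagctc
DLX2, chr2:172102901-172103150, - strand: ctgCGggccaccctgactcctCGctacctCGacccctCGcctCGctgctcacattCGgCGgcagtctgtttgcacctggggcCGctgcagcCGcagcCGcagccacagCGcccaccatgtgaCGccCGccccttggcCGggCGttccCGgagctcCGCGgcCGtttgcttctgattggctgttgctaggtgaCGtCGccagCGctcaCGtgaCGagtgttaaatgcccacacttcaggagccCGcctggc
MSX1, chr4:4859415-4859664, + strand: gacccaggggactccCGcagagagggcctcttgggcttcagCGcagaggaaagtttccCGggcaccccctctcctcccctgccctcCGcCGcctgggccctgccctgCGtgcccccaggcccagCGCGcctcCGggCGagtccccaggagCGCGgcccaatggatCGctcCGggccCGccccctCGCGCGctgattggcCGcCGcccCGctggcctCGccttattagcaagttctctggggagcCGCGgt
VAX1, chr10:117138271-117138520, - strand: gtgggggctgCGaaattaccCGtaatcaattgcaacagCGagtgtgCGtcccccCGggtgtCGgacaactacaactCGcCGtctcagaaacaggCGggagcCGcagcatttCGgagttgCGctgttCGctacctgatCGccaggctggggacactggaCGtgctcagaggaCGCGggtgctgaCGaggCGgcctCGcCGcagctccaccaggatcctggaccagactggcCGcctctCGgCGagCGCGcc
EN2 had 45 CpG dinucleotides in these bases, the most of the 8, HMX1 40 and PITX1 29, and MSX2 had the fewest at 17. The genes that were lower after loss of PRC2 lay between, with 23 at DLX1 and 25 at DLX2.

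In the table of promoters, which spans 250 bases before to 50 after each start, 43 of the 62 members had an entry, 65 entries in all. Entries with at least 55% GC and an observed-to-expected CpG ratio of at least 0.6 were 64.6% of the members' entries and 44.3% of all 35116, and the median CpG count was 23 against 14. Such a CpG-rich entry was found for 34 members, among them IRX1 and GSX1, which were at 0 in all 22 A673 libraries. Its relation to expression was not tested. The 8-base motif GGAAGGAA, 2 GGAA repeats of the kind bound by ETS factors, was searched on both strands. It was present in 4.62% of the members' entries (MEIS3, LHX9 and PAX6) and in 3.67% of all entries. These matches describe the windows only.

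Of the 62 members, 52 reached 10 counts in at least 1 of the 22 A673 libraries. GSX1, GSX2 and IRX1 had no read in any of them, and EMX2, EN1, IRX2, LHX8, PAX2, PAX4 and PITX3 never exceeded 9 counts. In the 8 unedited libraries 30 members had a mean of at least 1 normalized CPM and 23 of at least 10. Per kilobase of exon, the highest levels were those of OTX2, the forebrain and midbrain regulator (58.1 ± 12.4 CPM per kb, SD, n = 8), and DLX5, a neural crest and limb gene (46.1 ± 16.4), whose ranges overlapped. PBX2 followed at 31.7 ± 5.25, then DLX2 at 16.3 ± 7.15, BARX2 at 13.8 ± 2.76, DLX1 at 12.2 ± 2.84 and IRX3 at 11.8 ± 1.96, and neighbours in this last group did not differ beyond their spread. A673 cells thus contained transcripts of forebrain (OTX2, VAX1, DLX1, DLX2), branchial and crest (DLX5, DLX6, BARX1, BARX2, MSX1, PAX3, PAX7), placodal (SIX4) and TALE cofactor genes (MEIS1, PBX2) side by side.

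**Figure D1:**
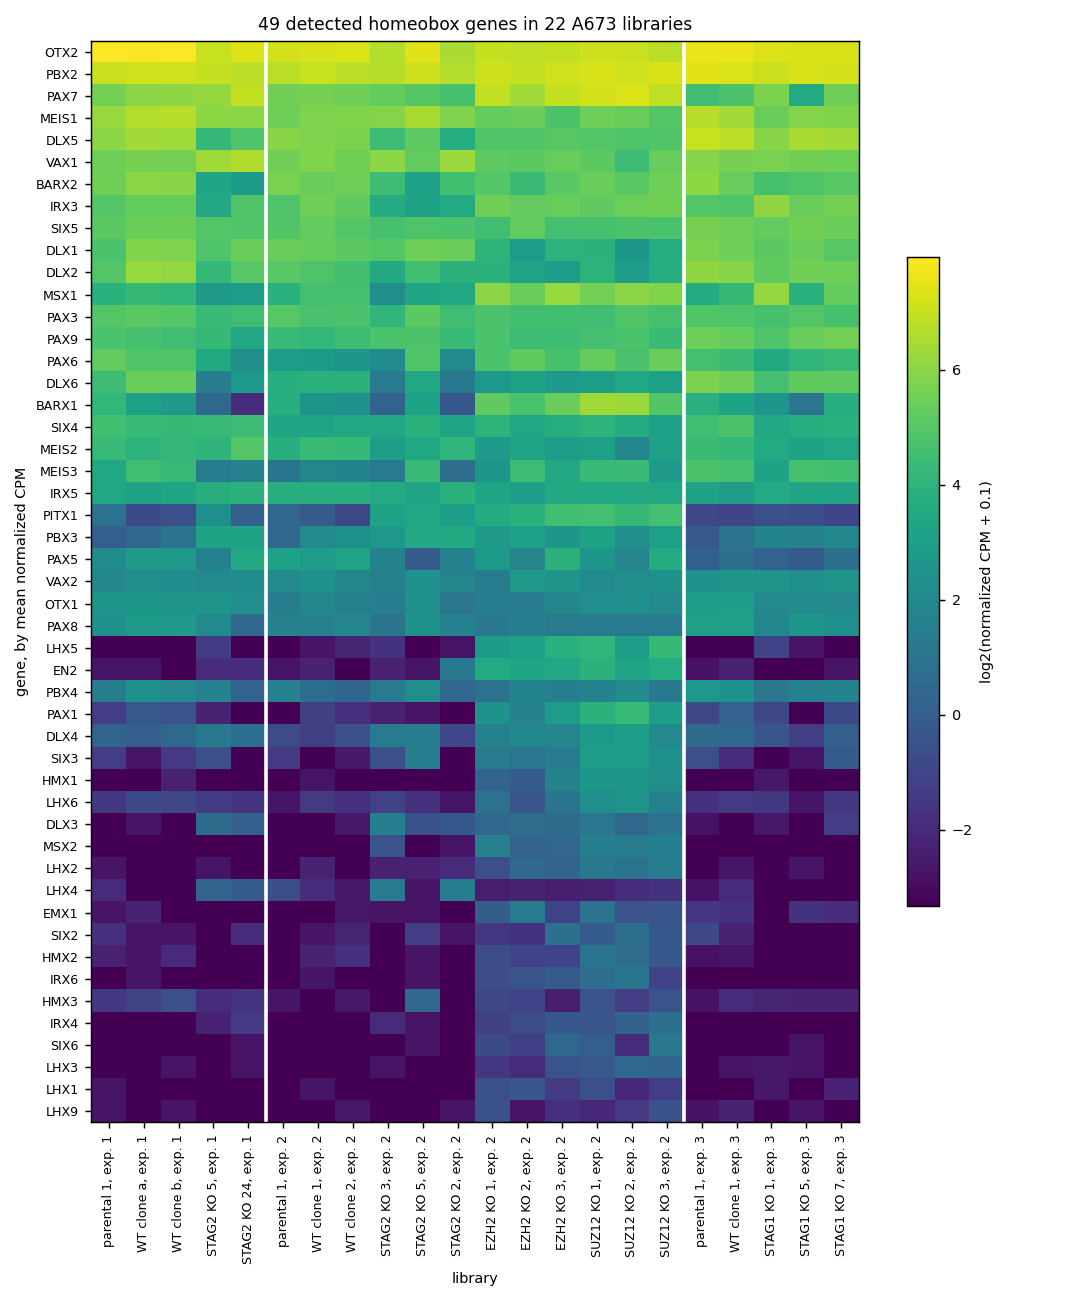
Normalized CPM, on a log2 scale with 0.1 added, of 49 of the 52 members with at least 10 counts in an A673 library (rows) in the 22 A673 libraries (columns, by experiment and genotype). A block of genes that is dark in the unedited cells, among them EN2, LHX5, PAX1 and HMX1, is lit in the 6 EZH2 KO and SUZ12 KO libraries, and OTX2 and PBX2 are high throughout.

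Several members differed between the unedited cells of the 3 experiments. MEIS3 was at 10.6 to 22.8 normalized CPM in the controls of experiment 1, 1.99 to 3.4 in experiment 2 and 24.5 to 27.4 in experiment 3. PAX6, an eye and forebrain gene, was at 29.3 to 37.4, 6.06 to 7.65 and 20.7 to 24.4 in the same order. DLX6 went from 22 to 41.2 over 13.7 to 15 to 47.7 to 52.5, whereas VAX1 stayed within 44.4 to 59.7 in all 8. Each KO was therefore compared only with controls of its own experiment.

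Loss of STAG2 in A673 clones changed members in both directions. Of 33 members tested, 10 were called at an adjusted p under 0.05 by edgeR's quasi-likelihood test with Benjamini-Hochberg adjustment over all genes, against 12.4% of all 13574 genes tested, 6.67% higher and 5.76% lower. Among them DLX3, PBX3, PITX1 and VAX1 rose and BARX2, DLX5, DLX6, IRX3 and MSX1 fell. The median log2 fold change over the 33 was -0.08, beside 0.04 over all genes. In bulk RNA, fewer cells that express a gene and less RNA per cell cannot be told apart, here and in what follows.

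DLX5 and DLX6, which act together in jaw and limb, fell together. By GENCODE 44 on GRCh38, DLX5 (ENSG00000105880) lies at chr7:97020396-97024950 and DLX6 (ENSG00000006377) at chr7:97005553-97011040, 9.4 kb apart. DLX5 was at 52.8 at the lowest, 62.7 at the median and 84.7 at the highest in the 6 STAG2-proficient libraries, and in STAG2 KO libraries at 18.2 and 28.6 in experiment 1 and 12.7, 21.3 and 36 in experiment 2. The groups did not overlap (log2 fold change -1.41, SE 0.26, adjusted p = 0.0049). DLX6 was at 13.7 at the lowest, 18.5 at the median and 41.2 at the highest in STAG2-proficient libraries. In STAG2 KO it was at 2.7 and 6.3 in experiment 1 and 2.26, 2.52 and 10.4 in experiment 2, again without overlap (log2 fold change -2.06, SE 0.50, adjusted p = 0.0207). The reads carry no strand, and those of DLX6 cannot be told apart from DLX6-AS1 where the genes share sequence. The call of DLX6 was lost in 4 of 20 alternatives, without either STAG2 KO library of experiment 1 (adjusted p = 0.0545 and 0.0559), in experiment 2 alone and with the parental line as the only control. DLX6-AS1 itself had a log2 fold change of -1.40 (adjusted p = 0.0753).

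BARX2, a regulator of adhesion and muscle genes, was at 41.9 at the lowest, 48.5 at the median and 63.1 at the highest in STAG2-proficient libraries. It was at 10.1 and 7.08 in experiment 1 and 23.5, 21.7 and 8.71 in experiment 2 in STAG2 KO (log2 fold change -1.89, SE 0.33, adjusted p = 0.00417), with no overlap. MSX1, a repressor that keeps crest and limb mesenchyme undifferentiated, was at 14.5 at the lowest, 17.9 at the median and 24.6 at the highest in STAG2-proficient libraries and at 6.62 and 7.42 in experiment 1 and 11.2, 4.72 and 9.91 in experiment 2 in STAG2 KO (log2 fold change -1.23, SE 0.24, adjusted p = 0.00693), also without overlap. Of IRX3, a patterning gene of neural tube, limb and heart, STAG2-proficient libraries had 28.8 at the lowest, 37.6 at the median and 44.2 at the highest. In STAG2 KO it was at 11 and 29.7 in experiment 1 and 11.8, 12 and 8.82 in experiment 2 (log2 fold change -1.30, SE 0.26, adjusted p = 0.00904). Only the library numbered 24, the one with the most STAG2 mRNA, reached the range of the controls for IRX3, and within experiment 1 the change was not called (-0.84, adjusted p = 0.155).

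Of the genes that rose, DLX3, a gene of placenta, skin and teeth, was near 0 in control cells, with 0 or 1 count in each, and in STAG2 KO it was at 1.5 and 1.01 in experiment 1 and 0.773, 2.78 and 0.626 in experiment 2. PBX3, a TALE cofactor, was at 0.933 at the lowest, 1.59 at the median and 5.04 at the highest in STAG2-proficient libraries and 9.09 and 8.99 in experiment 1 and 11.4, 6.35 and 11.2 in experiment 2 in STAG2 KO (log2 fold change 2.07, SE 0.40, adjusted p = 0.00639). Neither gene overlapped between groups. The fitted log2 fold change of DLX3 (5.72, adjusted p = 7.66e-04) depends on a prior count and gives no size. With at most 1 count in each STAG2-proficient library, DLX3 passed the filter on low counts through STAG2 KO libraries. Its being higher, and so its call, is fixed by the filter to a large part. In experiment 2 the STAG2 KO to control ratio of DLX3 was 80.1-fold (14 to 3204), on 79 counts against 1, in 3 libraries each. Here and below, parentheses after such a ratio hold the exact interval at a confidence level of 95%, which covers counting error only.

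PITX1, the hindlimb and pituitary gene, was at 0.446 at the lowest, 0.714 at the median and 1.81 at the highest in STAG2-proficient libraries and at 4.83 and 1.01 in experiment 1 and 7.62, 9.29 and 10.6 in experiment 2 in STAG2 KO (log2 fold change 2.70, SE 0.59, adjusted p = 0.0124). It overlapped only through library 24, and the 3 libraries of experiment 2 were all above the controls. Without STAG2 KO 5 of experiment 1 it was not called (adjusted p = 0.0528). VAX1, a gene of optic stalk and ventral forebrain, was at 44.4 at the lowest, 47.9 at the median and 56.2 at the highest and in STAG2 KO at 82.3 and 96.9 in experiment 1 and 76.1, 64.1 and 38.1 in experiment 2 (log2 fold change 0.59, SE 0.17, adjusted p = 0.0472). It was higher in 4 of 5 STAG2 KO libraries, the exception being STAG2 KO 5 of experiment 2. PBX3 was also higher in the WT clone than in the parental line. Against the WT clone alone, PBX3 was called (1.74, adjusted p = 0.0192), whereas VAX1 (0.55, adjusted p = 0.143) was not. The VAX1 call in STAG2 KO was lost in 16 of 20 alternatives, in which its adjusted p reached 0.587, among them leaving out any single library other than STAG2 KO 5 of experiment 2.

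**Figure D2:**
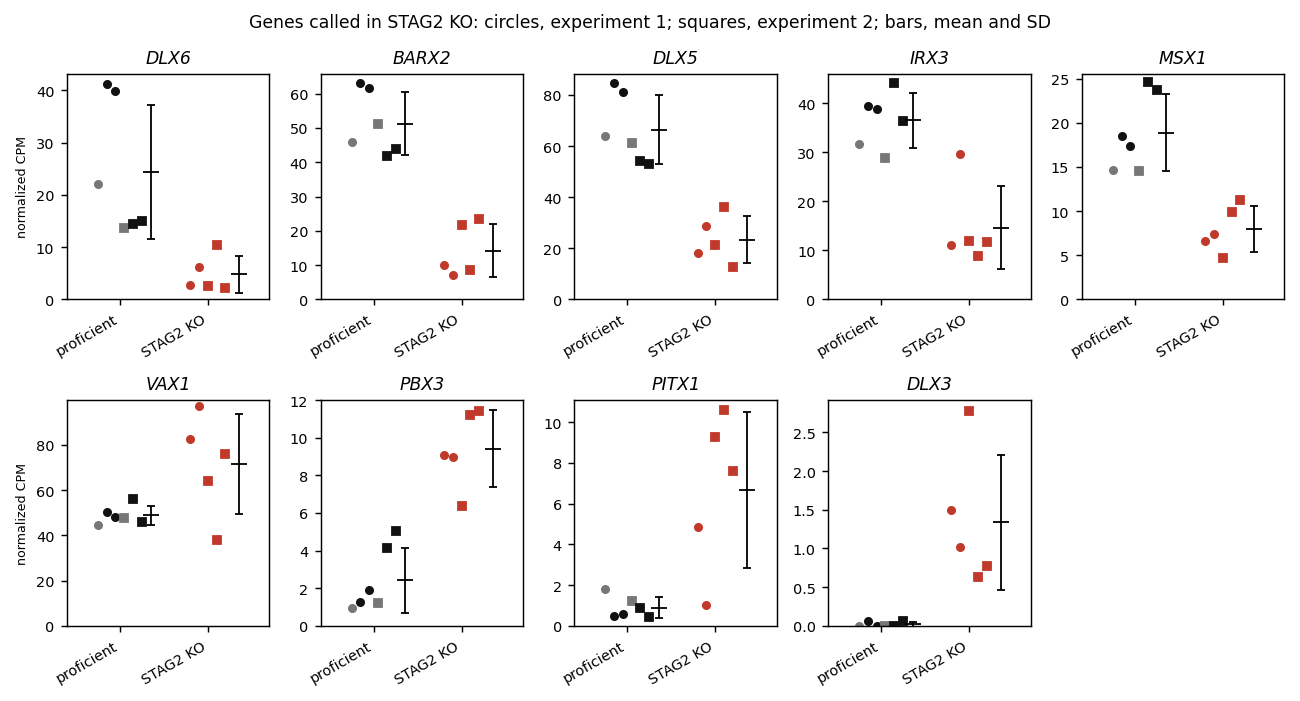
Normalized CPM of 9 of the 10 members called in STAG2 KO, in 6 STAG2-proficient and 5 STAG2 KO A673 libraries, with experiment 1 as circles, experiment 2 as squares, grey for the parental line, and bars for mean and SD. DLX5, DLX6, BARX2, MSX1, PBX3 and DLX3 do not overlap between the groups, while IRX3, PITX1 and VAX1 overlap through 1 library each. DLX3 passed the filter on low counts through STAG2 KO libraries.

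The library of STAG2 KO 5 in experiment 2 carried several members at levels unlike those of the other 4 STAG2 KO clones. MEIS3 was at 20.2 there and at 1.55 and 2.52 in the other clones of that experiment, PAX6 at 29.8 against 3.92 and 4.25, and BARX1 at 9.18 against 0.773 and 1.10. Without it 18 of the members were called in place of 10, 6 higher and 12 lower. Over all genes the calls rose as well, from 1687 of 13574 to 4048 of 13670 tested. The members added included BARX1 (-3.47, adjusted p = 0.0011), a branchial arch and stomach gene, and DLX2 (-1.12, adjusted p = 0.00909). Also added were MEIS3 (-1.53, adjusted p = 0.0277), PAX6 (-1.34, adjusted p = 0.0083) and OTX2 (-0.64, adjusted p = 0.00102). Without STAG2 KO 5 of experiment 1, in contrast, 6 members were called, beside 1292 of 13824 genes.

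Within experiment 1 alone 14 members were called, beside 3663 of 14145 genes, and within experiment 2 alone 6, beside 1305 of 15130. BARX2, DLX3, DLX5 and MSX1 were called in both. Outside these genes, the experiments could point in opposite ways. PAX7, a crest and muscle stem cell gene, was at 72.4 and 123 in STAG2 KO of experiment 1 against 63.5, 66 and 48.1 in its controls, and at 25.4, 38.8 and 31.3 in STAG2 KO of experiment 2 against 50.5, 46.5 and 46.8 there. STAG2 KO libraries thus lay above all controls in one experiment and below all in the other, with log2 fold changes of 0.73 (adjusted p = 0.076) and -0.52 (adjusted p = 0.0989), neither called, and the difference was not tested.

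Transient depletion of STAG2 in A673 was compared in the knockdown, where STAG2 itself was at 1068, 992 and 1089.7 normalized reads in siC and 144, 179.9 and 153 in siSTAG2 samples. Of 32 members tested by limma on log2(value + 1), 10 were called, 3 higher and 7 lower, against 20.5% of all 12060 genes tested, 9.54% higher and 11% lower. As in the clones, BARX2, DLX5, DLX6, IRX3 and MSX1 fell and VAX1 rose. IRX3 was at 1790.0, 2150.3 and 1870.0 in siC and at 1159, 1212 and 1242 in siSTAG2 (log2 fold change -0.68, SE 0.07, adjusted p = 1.5e-08). For MSX1 the values were 349.8, 319 and 371 and 223, 224 and 224 (log2 fold change -0.63, SE 0.09, adjusted p = 8.47e-06). VAX1, whose call in the clones was lost in most alternatives, went the other way, from 523, 524 and 505 to 869, 771 and 734 (log2 fold change 0.61, SE 0.07, adjusted p = 5.26e-07). The 2 groups did not overlap for any of these 3 genes.

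DLX5 had 491, 529 and 571 normalized reads in siC and 362, 385 and 368 in siSTAG2 (log2 fold change -0.51, SE 0.08, adjusted p = 2.39e-05), and DLX6 198, 218 and 191 and 122, 129.8 and 134 (log2 fold change -0.65, SE 0.11, adjusted p = 9.19e-05). BARX2 had 132, 134 and 169.8 and 95.4, 82.5 and 106 (log2 fold change -0.61, SE 0.14, adjusted p = 0.00192). These too were apart in all samples, and DLX6-AS1 fell as well (-0.99, adjusted p = 0.0322). Log2 fold changes in the knockdown ranged from -0.68 to 0.61 over these 6 genes and from -2.06 to 0.59 in STAG2 KO. They come from different tables and scales, and the difference in size was not tested.

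Called in the knockdown and not in STAG2 KO were MEIS3 (log2 fold change -0.77, SE 0.19, adjusted p = 0.00379) and PAX7 (log2 fold change -0.51, SE 0.11, adjusted p = 9.71e-04), both lower, and MEIS1 (log2 fold change 0.29, SE 0.09, adjusted p = 0.0294) and SIX3 (log2 fold change 1.25, SE 0.37, adjusted p = 0.0174), both higher. SIX3, an eye and forebrain gene, rested on few reads, 7.62, 4.92 and 11.5 in siC and 24.4, 24.1 and 12.6 in siSTAG2. It reached the minimum mean of 10 through the siSTAG2 samples, so that its direction is fixed by this filter to a large part. MEIS1 overlapped between groups, since 1 siSTAG2 sample at 338 was below the siC sample at 342. PBX3 and PITX1, which rose in clones, were not called in the knockdown, with log2 fold changes of 0.29 and 0.70 (adjusted p = 0.589 and 0.102). DLX3 did not reach the minimum mean of 10 there. Of the knockdown calls, that of MEIS1 was lost in 4 of 12 alternatives and that of SIX3 in 3 of 11, in each case by leaving out 1 sample.

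**Figure D3:**
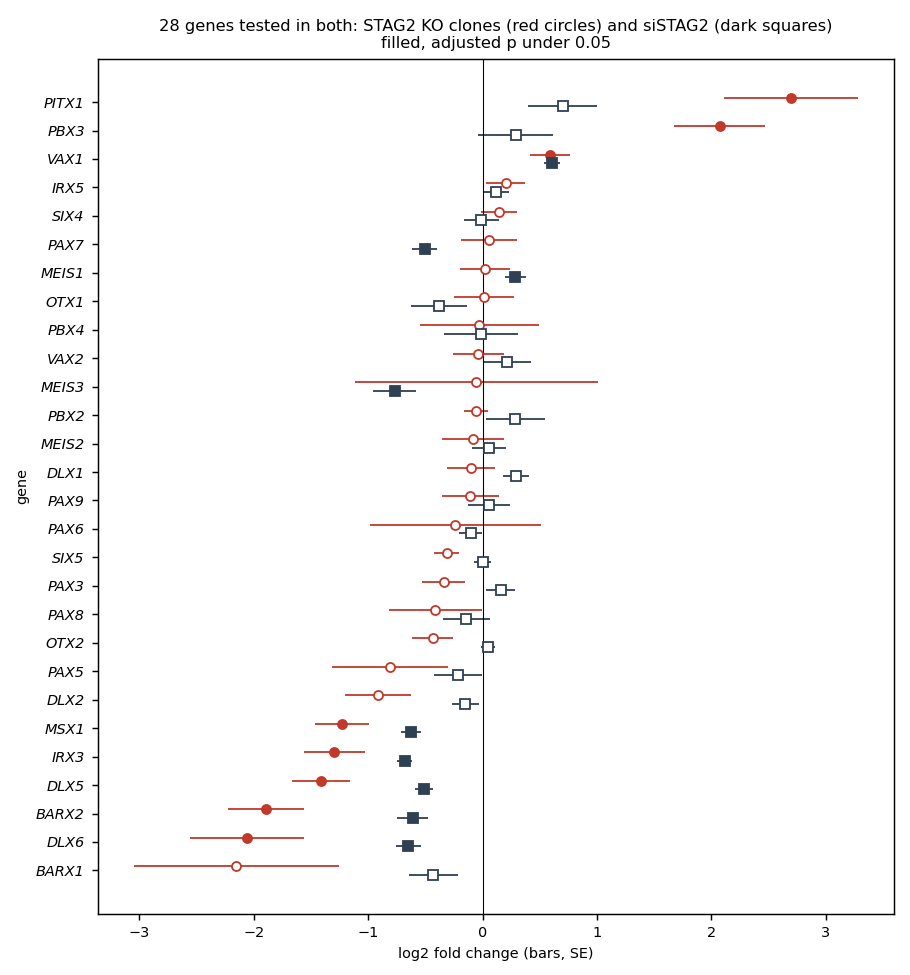
Log2 fold change and standard error of 28 of the 31 members tested in both STAG2 KO clones and the STAG2 knockdown, with filled symbols for an adjusted p under 0.05. IRX3, MSX1, DLX5, DLX6 and BARX2 lie below 0 and VAX1 above 0 with filled symbols in both.

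After loss of either PRC2 subunit most of the called members were higher than in the controls. In EZH2 KO 23 of 51 members tested were called, 21 higher and 2 lower, where 12% of all 15130 genes tested were higher, 3.69% lower and 15.7% called in all. In SUZ12 KO 28 of 51 were called, 25 higher and 3 lower, beside 14.7% of all genes higher, 5.87% lower and 20.6% in all. The 21 genes called higher in EZH2 KO were all among the 25 of SUZ12 KO. The KO groups share their 3 controls, so this is not independent. Median log2 fold changes over the 51 were 1.20 in EZH2 KO and 1.17 in SUZ12 KO (1.20 and 1.17 with genes at 0 in controls placed at their bound). Of the 62 members, 26 had at most 3 counts in each control library of experiment 2. The 15 of these that are among the 51 tested passed the filter on low counts through KO libraries. Their being higher is therefore fixed by the filter to a large part. They make up 12 of the 21 and 14 of the 25 genes called higher. Among the 36 members with more than 3 counts in a control library, 9 were called higher and 2 lower in EZH2 KO and 11 higher and 3 lower in SUZ12 KO, with median log2 fold changes of 0.18 and 0.25. Of these, PAX1, LHX6, SIX3 and DLX4, called higher in both KOs, had under 10 counts in each control. They too passed the filter through KO libraries, so that their direction is likewise fixed by it to a large part.

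Among the members with at most 3 counts in each control, the LIM gene LHX5 and the midbrain-hindbrain gene EN2 reached the highest levels. LHX5 was at 0.0566, 0.128 and 0 normalized CPM in the 3 controls, at 6.99, 8.25 and 14.6 in EZH2 KO and at 16.9, 7.66 and 18.6 in SUZ12 KO. EN2 was at 0.113, 0 and 0.0554, 11.7, 10.1 and 10.6 and 15.3, 9.47 and 12.5 in the same order. The groups stood far apart, with ratios to the controls of 203-fold (69.2 to 988) and 287-fold (98 to 1396) for LHX5 in EZH2 KO and SUZ12 KO. For EN2 they were 219.6-fold (74.8 to 1068) and 252-fold (85.8 to 1224). STAG2 KO 2 of experiment 2, at 2.26, was the only one of the A673 clone and parental libraries without PRC2 loss in which EN2 exceeded 0.2. The antisense transcript LHX5-AS1, at 0 in the 3 controls, was at 0.575, 1.47 and 1.99 in EZH2 KO and 1.75, 0.856 and 1.5 in SUZ12 KO, and without strand its reads and those of LHX5 cannot be told apart where they overlap.

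HMX1, a gene of eye, ear and sensory ganglia, had 1 count over the 3 controls. It was at 1.1, 0.868 and 3.22 in EZH2 KO and 6.21, 6.13 and 4.62 in SUZ12 KO, a ratio of 108-fold (18.9 to 4290.0) and 349-fold (62.2 to 13820.0). MSX2, the paralog of MSX1 that acts in skull and crest, had no count in the controls and was at 2.92, 1.09 and 1.23 and 2.72, 2.57 and 2.79, at least 35.9-fold and at least 54.8-fold higher against a floor of 3 counts over the group. DLX3 was at 1.25, 1.52 and 1.47 and 2.09, 1.22 and 1.77, levels that overlapped with those of STAG2 KO in the same experiment (0.773, 2.78 and 0.626). Each of these 3 genes was above every control in all 6 KO libraries.

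SIX6, IRX4 and LHX3 had no count in the controls. SIX6 was at 0.479, 0.326 and 1.28 in EZH2 KO and 0.921, 0.18 and 2.2 in SUZ12 KO, IRX4 at 0.335, 0.488 and 0.758 and 0.679, 1.04 and 1.66, and LHX3, a motor neuron and pituitary gene, at 0.239, 0.163 and 0.664 and 0.776, 1.31 and 1.18. LHX2 (0.575, 1.36 and 1.19 and 2.18, 1.94 and 2.68), LHX1, EMX1 and IRX6 were called higher in both KOs from at most 2 counts over the controls. HMX2 and SIX2 were called in SUZ12 KO only (adjusted p = 0.00504 and 0.0308, against 0.0971 and 0.0693 in EZH2 KO), and the direct contrast of the KOs called neither. The call of SIX6 in EZH2 KO was lost in 5 of 10 alternatives, that of LHX1 in 4 of 10 in EZH2 KO and 5 of 10 in SUZ12 KO, and that of SIX2 in 6 of 11, mostly by leaving out 1 library. Beyond the tested genes, EMX2 (9 counts over 3 EZH2 KO and 13 over 3 SUZ12 KO libraries against 0) and EN1 (12 over 3 SUZ12 KO libraries against 0) showed reads that no control had.

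**Figure D4:**
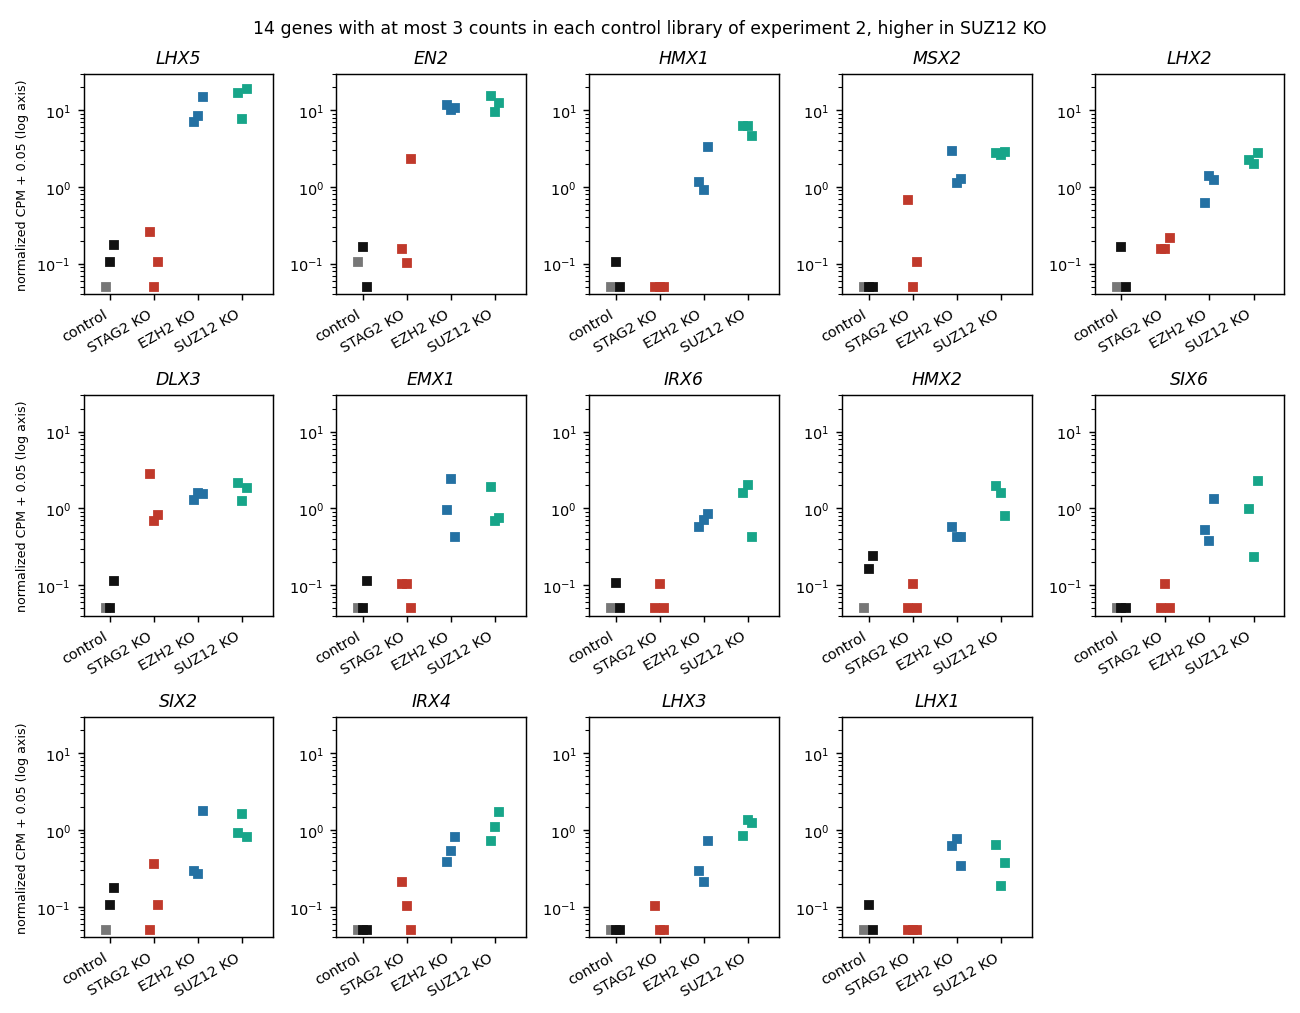
Normalized CPM with 0.05 added, on a log axis, of the 14 members called higher in SUZ12 KO that had at most 3 counts in each control of experiment 2, for control, STAG2 KO, EZH2 KO and SUZ12 KO libraries (3 each). LHX5 and EN2 reach about 7 to 18.6 in EZH2 KO and SUZ12 KO, and the STAG2 KO libraries stay near the controls except for DLX3, and in 1 library each for EN2 and MSX2. Grey points are the parental line.

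Genes with more than 3 counts in a control library that rose in both KOs included PITX1, PAX1 and PAX7. PITX1 was at 0.85, 0.446 and 1.22 in the 3 controls of experiment 2, 12.2, 14.5 and 23.5 in EZH2 KO and 23.9, 18.6 and 24 in SUZ12 KO, with log2 fold changes of 4.38 (SE 0.38, adjusted p = 4.59e-05) and 4.77 (SE 0.39, adjusted p = 2.84e-05). PAX1, a gene of the sclerotome and close to 0 in the controls, was at 0.34, 0.191 and 0, 5.27, 3.09 and 7.3 and 15, 19.3 and 7.73. PAX7 was at 50.5, 46.5 and 46.8, 119.7, 83 and 124 and 145, 158 and 118 (1.27 and 1.62, adjusted p = 0.00121 and 2.21e-04). All 6 KO libraries were above all controls for each of these genes.

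MSX1, lower without STAG2, was at 24.6, 23.7 and 14.5 in controls and at 63.5, 42.9 and 75 in EZH2 KO and 48.3, 63.5 and 56.6 in SUZ12 KO, with log2 fold changes of 1.62 and 1.5 (adjusted p = 0.00518 and 0.00581). DLX4, the LIM gene LHX6, PAX6 and SIX3 also rose in both. Of these SIX3 had the largest change (4.35 and 5.79), from at most 0.277 normalized CPM in the controls. DLX4 and LHX6 were called in every alternative, whereas in EZH2 KO the call of PAX6 was lost in 7 of 11, among them without any single library (adjusted p up to 0.135), and that of SIX3 in 5 of 11 (up to 0.118). In SUZ12 KO the PAX6 call was lost in 4 of 11 and that of SIX3 in 0. BARX1 (3.0, adjusted p = 0.0165) and PBX2 (0.44, adjusted p = 0.0347) were called in SUZ12 KO, and in EZH2 KO their log2 fold changes were 2.18 and 0.29 (adjusted p = 0.0696 and 0.17). The call in SUZ12 KO was lost in 4 of 11 alternatives for BARX1 and in 8 of 11 for PBX2.

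DLX1 and DLX2, interneuron genes, were called lower in both KOs, DLX1 in every alternative. DLX1 (ENSG00000144355) lies at chr2:172084740-172089677 and DLX2 (ENSG00000115844) at chr2:172099438-172102900, 9.8 kb apart. DLX1 was at 38.9, 34.5 and 41.8 in controls, 16, 7.22 and 15.4 in EZH2 KO (log2 fold change -1.49, SE 0.34, adjusted p = 0.0127) and 15.2, 6.13 and 12.5 in SUZ12 KO (log2 fold change -1.70, SE 0.34, adjusted p = 0.00498). DLX2 was at 28.9, 23 and 34, 14.7, 9.5 and 7.82 and 15.8, 7.53 and 13.1 (-1.34 and -1.17, adjusted p = 0.0247 and 0.0343). No KO library reached the lowest control for either gene. MEIS2, a TALE cofactor, was called lower in SUZ12 KO (-1.26, adjusted p = 0.0369), and had -1.05 in EZH2 KO (adjusted p = 0.0867). With scaling by library size alone, which moved the median of all genes by 0.159 in EZH2 KO and 0.181 in SUZ12 KO, DLX2 was no longer called in EZH2 KO (adjusted p = 0.0556) or SUZ12 KO (0.0879), nor MEIS2 in SUZ12 KO (0.0654), and their direction stayed. Over all 11 alternatives the DLX2 call was lost in 6 in EZH2 KO and 7 in SUZ12 KO, mostly by leaving out 1 control or KO library, and the MEIS2 call in 5.

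The expressed members IRX3, IRX5, OTX1, OTX2, PAX3, PAX5, PAX8, PAX9, SIX4, SIX5 and VAX1 were among the 22 with more than 3 counts in a control that were called in neither KO. OTX2, the most abundant, was at 153, 159.8 and 144 in controls, 125, 119 and 119 in EZH2 KO and 135, 133 and 109.7 in SUZ12 KO (adjusted p = 0.449 and 0.504). Each KO library was below all 3 controls, without passing the test. Of the 21 genes called higher in both KOs, 12 had a promoter entry and 11 a CpG-rich one, with 5 to 50 CpG dinucleotides and a median of 27 per entry. Over all members 43 had an entry and 34 a CpG-rich one, and the difference was not tested.

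Set directly against each other, EZH2 KO and SUZ12 KO gave 0 called members of 51 (edgeR), beside 0.00661% of all genes, 0% higher and 0.00661% lower. At an unadjusted p under 0.05 the count was 5, beside 4.16% of all genes, and DESeq2 called 0. The largest of these values came from the HMX genes, with log2 differences of EZH2 KO minus SUZ12 KO of -1.69 (SE 0.57) for HMX1 and -1.69 (SE 0.64) for HMX2. Both adjusted p-values were near 1, which does not show that the KOs act alike.

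STAG2 KO and the PRC2 KOs were set against each other in experiment 2. STAG2 KO differed from EZH2 KO in 21 of 51 members, 4 higher and 17 lower (20.4% of all genes called, 8.04% higher and 12.4% lower), and from SUZ12 KO in 27, 5 higher and 22 lower (25.8% of all genes, 11.2% higher and 14.5% lower). Of those lower, 11 and 12 had at most 3 counts in each control and passed the filter through KO libraries, so that their direction is fixed by it to a large part. The 36 members with more counts gave 4 higher and 6 lower against EZH2 KO and 5 higher and 10 lower against SUZ12 KO. Of those lower, PAX1 and LHX6 against both, and DLX4 against SUZ12 KO, had under 10 counts in each control and passed the filter in the same way. Of those higher, LHX4 had at most 10 counts in a control. It passed the filter mainly through STAG2 KO libraries, so that its direction is likewise fixed by it to a large part. MSX1 was at 11.2, 4.72 and 9.91 in STAG2 KO and at 42.9 or more in all EZH2 KO and SUZ12 KO libraries (-2.83 and -2.71, adjusted p = 1.94e-04 and 2.08e-04). IRX3, which was called in neither PRC2 KO, also differed (-1.95 and -1.99, adjusted p = 5.41e-05 and 4.03e-05), as did PAX7 (-1.79 and -2.14, adjusted p = 1.01e-04 and 3.05e-05). For these 3 genes every STAG2 KO library was below every PRC2 KO library. LHX5, HMX1 and PAX1 were called lower in STAG2 KO than in both PRC2 KOs, and none of the 3 exceeded 0.210 normalized CPM in a STAG2 KO library of that experiment.

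Among those higher in STAG2 KO than in both PRC2 KOs were DLX1, LHX4 and MEIS1, joined by VAX1 against SUZ12 KO. LHX4, a pituitary and motor neuron gene, was at 1.09 and 0.899 in STAG2 KO of experiment 1 and 2.54, 2.31 and 0.0522 in experiment 2, where the EZH2 KO libraries had 0.0958, 0.109 and 0.0948 and the SUZ12 KO libraries 0.097, 0.18 and 0.215 (adjusted p = 0.0239 and 0.0347). Controls had up to 0.554, 4 of 5 STAG2 KO libraries were above that, and STAG2 KO 5 of experiment 2 was not. LHX4 was too low to be tested against the controls of both experiments, and in experiment 2 it passed the filter mainly through STAG2 KO libraries. PITX1 and DLX3 rose without STAG2 and without PRC2. The direct contrast called neither between STAG2 KO and EZH2 KO (-0.88, SE 0.32, and -0.04, SE 0.59), and PITX1 was lower in STAG2 KO than in SUZ12 KO (-1.28, adjusted p = 0.0136).

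STAG1 KO went with lower levels of the TALE genes MEIS1 and MEIS2 and of SIX4. Of 33 members tested in experiment 3, 4 were called, all lower, beside 5.27% of all 14373 genes, 2.77% higher and 2.5% lower. At an unadjusted p under 0.05 there were 17, beside 24.9% of all genes. MEIS1 was at 84.2 and 107 in the controls and 43.2, 58.2 and 57.2 in STAG1 KO (log2 fold change -0.86, SE 0.17, adjusted p = 0.0451), and MEIS2 at 18 and 20.3 and 11.8, 9.11 and 10.3 (log2 fold change -0.88, SE 0.17, adjusted p = 0.0462). SIX4 was at 28.1 and 22.7 and 11.2, 12.9 and 14.5 (log2 fold change -0.98, SE 0.18, adjusted p = 0.0382). For these 3 genes each STAG1 KO library lay below both controls, the library labelled 1 included, in which STAG1 was not reduced. With 2 controls these calls were fragile. Leaving out STAG1 KO 5 or 7 left 0 called, beside 264 of 14218 and 326 of 14123 genes. Leaving out the library labelled 1 gave 8, beside 1310 of 14239.

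Loss of STAG2 was set against loss of STAG1 in a joint fit over experiments 1 to 3, where 3 of 36 members differed, 1 higher and 2 lower, beside 6.11% of all genes, 2.36% higher and 3.75% lower. IRX3 (difference -2.17, SE 0.45, adjusted p = 0.012) was at 68, 41.7 and 48.7 in STAG1 KO against 28.5 and 30.5 in its controls, above both in each library. MSX1 (difference -2.68, SE 0.61, adjusted p = 0.0192) was at 69.9, 14.6 and 39.4 against 18.8 and 12.2, with 2 of 3 STAG1 KO libraries above both controls. SIX4 (difference 1.09, SE 0.25, adjusted p = 0.0199) fell in STAG1 KO and had a log2 fold change of 0.14 in STAG2 KO. Without the parental or the WT clone library of experiment 3 none of the 3 was called.

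Between the unedited lines, 4 of 33 members differed, beside 2.72% of all 14167 genes, 1.76% higher and 0.96% lower. MSX1 (0.53, adjusted p = 0.0442) and PBX3 (1.33, adjusted p = 0.0462) were higher and BARX1 (-1.08, adjusted p = 0.00843) lower in the WT clone than in the parental line, by log2 fold changes within experiments. Of these, PBX3 moved in STAG2 KO in the direction in which the WT clone differed from the parental line, and MSX1 moved against it. Leaving out WT clone 1 or 2 of experiment 2 left 0 called, beside 98 of 14058 and 102 of 14134 genes.

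In the isogenic pairs each arm is 1 library, so differences have no replicate check and no p-value. STAG2 itself was at 184 normalized CPM without and 293 with STAG2 in SK-N-MC, lower by 1.59-fold, and at 34.1 and 86.9 in A4573, lower by 2.54-fold. EZH2 was 1.47-fold lower without STAG2 in SK-N-MC and 2.79-fold higher in A4573. Past 2-fold were 27 of 47 members measured in SK-N-MC, 16 higher and 11 lower without STAG2, beside 21.6% of all genes, 10.2% higher and 11.4% lower, and 10 of 46 in A4573, 3 higher and 7 lower, beside 21.8%, 7.76% higher and 14.1% lower. In all 31 members passed 2-fold in at least 1 pair. Of the 41 measured in both, DLX2, OTX2 and PAX9 were past 2-fold lower in both, and EMX2 and PAX7 went in opposite directions. In A4573 EMX2 rested on 9 counts without STAG2 and 28 with it, and PAX7 on 4 and 13. The counting interval of PAX7 there, 0.963 to 13.1-fold lower, includes no change.

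Markers of other cell types also differed between the arms of the SK-N-MC pair. The 4 leukocyte markers summed to 59.0 normalized CPM without STAG2 and 4.04 with it, nearly all of it PTPRC (1776 and 99 counts), and 1 of 3 measured was past 2-fold higher and 1 lower. The 4 epithelial markers summed to 184 and 427.7, with 2 of 3 higher, EPCAM among them (286 and 27 counts), and 1 lower. The 4 fibroblast markers summed to 189.9 and 213.7, with DCN higher (532 and 50 counts) and 1 lower, and the 3 endothelial ones to 3.63 and 1.43. The sums in A4573 were 0.465 and 0.605 for leukocytes, 0.631 and 2.29 for epithelium, 23.1 and 40.0 for fibroblasts and 0.431 and 1.15 for endothelium. The part of these markers in the values of the pairs was not tested.

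DLX2 had 586 counts without STAG2 and 2519 with it in SK-N-MC, lower by 3.98-fold, with a counting interval of 3.64 to 4.37, and 1655 counts without STAG2 and 6604 with it in A4573, lower by 3.83-fold, with a counting interval of 3.63 to 4.04. PAX9, a branchial arch and tooth gene, had 137 counts without STAG2 and 640 with it in SK-N-MC and 168 counts without STAG2 and 567 with it in A4573, lower by 4.33-fold and 3.24-fold. OTX2 rested on 10 counts without STAG2 and 27 with it in SK-N-MC, whereas in A4573 it was abundant, with 7257 counts without STAG2 and 15987 with it.

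In SK-N-MC some members were near 0 in one arm of the pair. EMX2, a forebrain and urogenital gene, had 135 counts without STAG2 and 1 with it, 146-fold, with a counting interval of 25.7 to 5795. EMX1 had 102 counts without STAG2 and 4 with it, IRX2 57 and 0, at least 20.5-fold, and BARX1 56 and 4. PAX1 went the other way, with 14 counts without STAG2 and 396 with it, lower by 26.2-fold, with a counting interval of 15.4 to 48.4. Of the 6 genes that moved alike in STAG2 KO clones and knockdown of A673, MSX1 was lower in SK-N-MC (1857 counts without STAG2 and 4972 with it, 2.48-fold, with a counting interval of 2.35 to 2.62) and by less than 2-fold in A4573 (1.41-fold). VAX1 was 1.96-fold higher in SK-N-MC and 1.41-fold lower in A4573, neither past 2-fold. BARX2 had no read in any of the 4 libraries, and DLX5, DLX6 and IRX3 stayed within 2-fold in both pairs, on 7 to 31 counts in SK-N-MC.

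**Figure D5:**
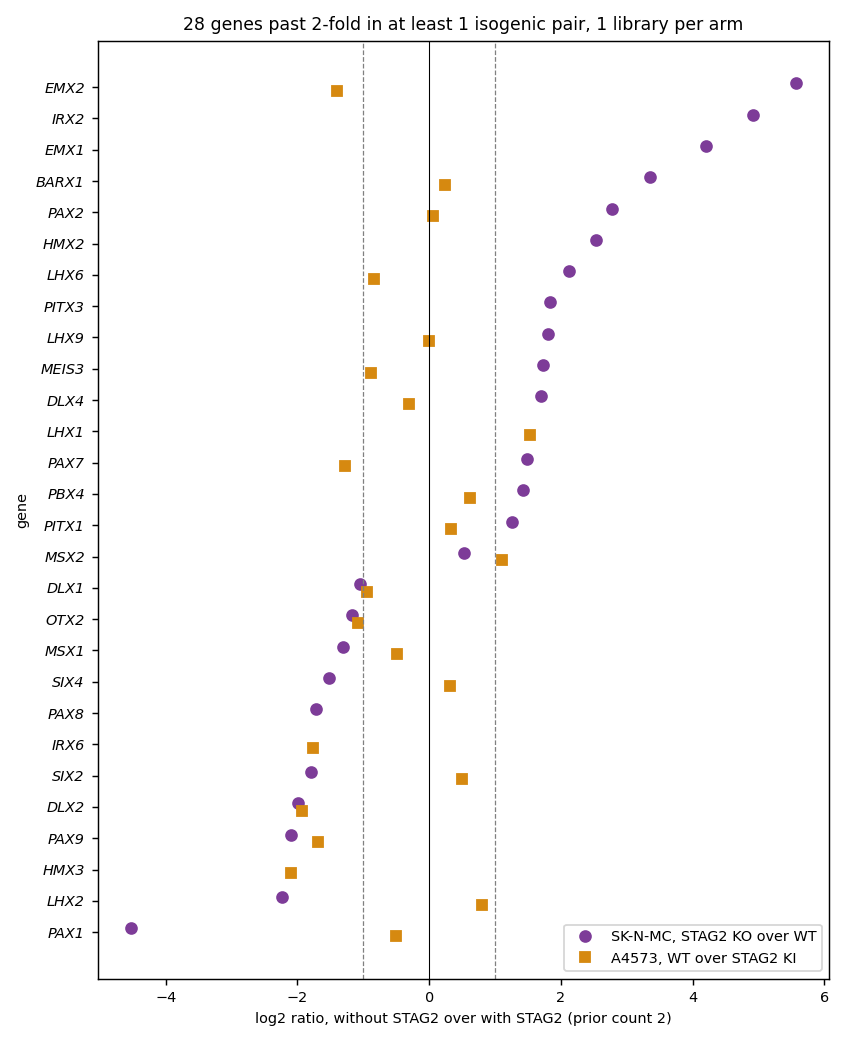
Log2 ratio of normalized CPM without STAG2 over with STAG2, with a prior count of 2, for 28 of the 31 members past 2-fold in at least 1 of the SK-N-MC and A4573 pairs (1 library per arm). DLX2, OTX2 and PAX9 lie to the left of 0 in both pairs, and EMX2 and PAX7 on opposite sides. In A4573 EMX2 rests on 9 and 28 counts and PAX7 on 4 and 13.

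Partners and relatives of the members were read from lists of their own. Of 51 other homeobox genes outside the clusters, 5 of 15 tested were called in STAG2 KO (2 higher, 3 lower), 13 of 29 in EZH2 KO (12 higher, 1 lower) and 20 of 29 in SUZ12 KO (17 higher, 3 lower), where 12.4%, 15.7% and 20.6% of all genes were called. Of the 29, 10 had at most 3 counts in each control and passed the filter through KO libraries. The other 19 gave 5 higher and 1 lower in EZH2 KO and 7 higher and 3 lower in SUZ12 KO. Of these, NOTO, called higher in both, had at most 5 counts in a control and also passed the filter through KO libraries. In STAG2 KO those called lower included GSC (-2.45) and RAX (-2.18), and GSC (-1.27) also fell in the knockdown. Among 6 partners of the sine oculis homologs, the EYA and DACH genes, EYA1 fell in EZH2 KO (-2.99, adjusted p = 0.0342) and SUZ12 KO (-3.18, adjusted p = 0.0216). Of the homologs themselves, SIX3 and SIX6 were called higher in both and SIX2 in SUZ12 KO, all from low control counts. Neither SIX4 nor SIX5 was called in either. Of 13 LIM partners and relatives, 4 of 11 tested were called in each PRC2 KO, 3 higher and 1 lower, with LMX1B, LDB2 and LMO4 higher in both. LMX1B, at 0 in each control, passed the filter through KO libraries, so that its direction is fixed by it to a large part. In STAG2 KO 1 of 10 was called, LDB2 (0.42, adjusted p = 0.00982), a share close to the 12.4% of all genes. Of 5 TALE relatives, 4 were called in each PRC2 KO, PKNOX2 higher and TGIF1 and TGIF2 lower among them, and 2 of 4 in STAG2 KO, PKNOX2 higher (0.96) and TGIF1 lower (-0.68). MKX, tested in the PRC2 KOs with at most 1 count in each control, passed the filter through KO libraries in the same way.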

How the data were processed

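The authors primed cDNA with oligo-dT, sequenced it without strand as single-end reads and aligned them to hg38. The submitters' processing notes name SAMtools 0.1.16, TopHat2 2.0.0 and also Bowtie 0.12.7. The counting program and annotation were not given in the sources used here. The deposited values of the clone and pair tables are counts of reads per gene symbol, without normalization. Those of the knockdown, deposited as a signal, are counts that the authors divided by 1 factor per library. Multiplying by that factor gave whole reads for 100% of values within 0.01, and DESeq2 is named in the processing notes. All columns with values per sample were used, and 0 rows had no gene name.

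The members and the gene lists were chosen with earlier results of these data known. Members called against controls are given with their values per library, starting with the highest in each role, and other members by ranges and counts. Some genes are counted but not reported here by name or drawn in the figures. Libraries were grouped by the genotype in the labels. Those of STAG2 KO in experiment 1 and of STAG1 KO were matched to the group and not to a single clone of the study. Both libraries of the WT clone in experiment 1 differed by little more than sampling noise (mean chi-square 1.33 per gene over 13967 genes, with 9.41 as the next lowest among clones) and were kept as 2.

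In R 4.3.3, edgeR 4.0.16 (TMM, filterByExpr by group, quasi-likelihood test) was fitted to all genes, with the experiment as a term for STAG2 KO, for the WT clone against the parental line and for the difference between STAG2 KO and STAG1 KO, and with all 12 experiment 2 libraries fitted jointly. The knockdown was fitted with limma 3.58.1 (trend) on log2(value + 1) for genes with a mean of at least 10. Calls are Benjamini-Hochberg adjusted p-values under 0.05 over all genes tested. Pairs were compared as CPM ratios where a gene had at least 10 counts over both arms. Ratios with few counts carry exact intervals at a confidence level of 95%, and a group at 0 was set to a floor of 3 counts, both covering counting error only. Kilobases are exon lengths of GENCODE 44. Fits were tested on simulated data. Alternatives were DESeq2 1.42.0, scaling by library size, no filter, other controls, single experiments, summed WT clone libraries, other pseudocounts and minimums, recovered reads, replicate blocks and each library left out.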

Additional observations from a re-analysis of the deposited data

Results flagged for a closer look

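IRX3 in STAG2 KO had 1 library far from the others. The library numbered 24 of experiment 1 was at 29.7 normalized CPM, and the other 4 were at 8.82 to 12. A gap of this kind was looked for only in the 10 members called in STAG2 KO, in 6 STAG2-proficient and in 5 STAG2 KO libraries each. It was found in 1 of these 20 groups, and by the 95% critical value used chance alone gives such a gap in about 1 in 20 groups. STAG2 itself was at 183 in that library, the highest of the STAG2 KO libraries, and the part of this level in the value of IRX3 was not tested. Of the members, 3 had effects that differed between STAG2 KO and STAG1 KO by edgeR's contrast over 16 libraries. The STAG2 KO log2 fold change minus the STAG1 KO log2 fold change was -2.17 for IRX3 (adjusted p = 0.012), with all 3 STAG1 KO libraries above their controls. It was -2.68 for MSX1 (adjusted p = 0.0192) and 1.09 for SIX4 (adjusted p = 0.0199). STAG1 mRNA in the STAG1 KO library labelled 1 was at the level of its controls, and that library had the highest IRX3 (68) and MSX1 (69.9) and the lowest SIX4 (11.2) of the 3. Without it 2 of the 3 were called.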

How the results depend on the processing

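No called member changed sign under any alternative, in any of the 5 comparisons with controls. All alternatives kept the call for 20 of 28 members in SUZ12 KO, 16 of 23 in EZH2 KO, 8 of 10 in the knockdown, 0 of 10 in STAG2 KO and 0 of 4 in STAG1 KO. In STAG2 KO the parental line as the only control, with fewer libraries, left 1 called (PBX3), beside 116 of 14120 genes. Experiment 2 alone gave 6, beside 1305 of 15130. The WT clone libraries of experiment 1 summed, a setting chosen after seeing the data, gave 8 (without VAX1, among others), beside 1154 of 13411. Leaving out each library gave 6 to 18 in STAG2 KO (18 without STAG2 KO 5 of experiment 2, 6 without STAG2 KO 5 of experiment 1), 18 to 20 in EZH2 KO, 20 to 26 in SUZ12 KO, 8 to 11 in the knockdown and 0 to 8 in STAG1 KO. It gave 0 to 6 for the WT clone against the parental line, 0 to 7 for the difference between STAG2 KO and STAG1 KO, 15 to 30 and 20 to 34 for STAG2 KO against EZH2 KO and SUZ12 KO, and 0 for EZH2 KO against SUZ12 KO. DESeq2 called 14 members in STAG1 KO, beside 1943 of 20397 genes. For the difference between STAG2 KO and STAG1 KO it called 5, beside 1541 of 21725. The cause was not tested. Summed in this way, the WT clone differed from the parental line in 1 member. Over all genes STAG2 KO had 1687 calls, DESeq2 gave 2621, leaving out STAG2 KO 5 of experiment 2 gave 4048 and WT clone 1 of experiment 2 gave 1053. EZH2 KO had 2377, and 1169, 1227 and 1441 without WT clone 1, WT clone 2 or the parental line. In the pairs 37 changes past 2-fold were counted over both, 40 with a prior count of 0.5, 38 with library size alone and 28 with at least 50 counts in the pair. A fit of edgeR to the recovered reads, also chosen after seeing the data, called 10 members in the knockdown, beside 2503 of 12199 genes. With the replicate number as a block, the knockdown gave 11, beside 2881 of 12060 genes, and EZH2 KO against SUZ12 KO 0, beside 0 of 14820. Same-numbered samples correlated by 0.0372, 0.0257 and 0.004 in the knockdown and by -0.1419, 0.3872 and 0.3396 between the PRC2 KOs. Samples of different number correlated by -0.0305 to 0.0056 in the knockdown and by -0.421 to 0.1491 between the PRC2 KOs. Whether same-numbered samples belong together was not tested. Depth limited members under about 10 counts, 10 of the 62 in A673.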
